A study of Homo sapiens with 6 samples.

Results

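The 10 genes described here encode the transcription factors NRF2 (NFE2L2) and NRF1 (NFE2L1), the NRF2 inhibitor KEAP1, and proteins that pair with, degrade or regulate them: MAFF, MAFG, MAFK, SQSTM1, OSGIN1, CUL3 and BTRC. They were chosen by symbol from a table of 26789 genes; each of the 10 symbols had 1 row, and all 10 had a mean of at least 1 FPKM, the limit for testing that 11791 genes met. FPKM, the deposited unit, counts the fragments of a gene relative to gene length and library total. RNA came from SK-N-SH, a human neuroblastoma line labelled wild type, cultured for 24 h and then kept for 6 h with dopamine (DA+, n = 3) or with medium alone (DA-, called control here, n = 3). The dose printed in the labels appears to have lost its unit prefix and is not given here. All 6 samples carry the name SK-N-SH, although the series' design text also mentions its subline SH-SY5Y. Nothing states whether replicates 1 to 3 of a group were separate cultures, so p-values here reflect only the spread among these 6 samples, which may be technical. The series is about dopamine and cell proliferation.

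In unstressed cells KEAP1 holds NRF2 and, as the adaptor of the cullin-3 ubiquitin ligase, marks it for degradation. Electrophiles and oxidants modify cysteines of KEAP1, NRF2 then escapes degradation, enters the nucleus and binds antioxidant response elements as a heterodimer with a small MAF protein. NRF2 is controlled largely through protein stability, which RNA levels do not measure.

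Depth, recovered from the steps between low FPKM values, was 19393512 to 21377221 fragments in the dopamine libraries and 20676472 to 24231635 in the control libraries. At that depth an exonic length was found for each of the 10 genes that made all 6 of its values whole fragments, within 0.011. Wholeness was the criterion of that search. The fragments behind each value were taken from these lengths. They ran from 153 to 224 per library for MAFF, the least covered gene, and from 10627 to 13053 for NFE2L1. The adrenergic neuroblastoma markers (8 of 8 measured, among them PHOX2A, HAND2 and GATA3) summed to 309 to 360 FPKM in dopamine libraries and 320 to 370 in control libraries. The mesenchymal markers (7 of 7 measured, among them VIM and FN1) summed to 1139 to 1189 FPKM with dopamine and 1144 to 1285 in control. Blood cell markers (3 of 6 measured) summed to at most 0.0512 FPKM with dopamine and 0.0939 in control, and Schwann cell markers (4 of 5 measured) to at most 1.86 FPKM with dopamine and 1.91 in control. Of the epithelial markers (5 of 6 measured) KRT18 and KRT8 alone exceeded a mean of 1 FPKM, and the sums were 104 to 120 with dopamine and 138 to 173 in control. KRT18 stood at 91.3, 104 and 90.4 FPKM with dopamine and at 121, 148 and 153 FPKM in control, without overlap, and its part in the values of the 10 genes was not tested. EPCAM and CDH1, which define epithelial cells, had means of 0.152 and 0.0608 FPKM, and no measured marker had a mean of 0. In bulk RNA, fewer cells of a type and less RNA per cell cannot be told apart. At an adjusted threshold of 0.05 (limma, two-sided, Benjamini-Hochberg over all 11791 genes) 12 genes passed in all, which is 0.102%.

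Among the 10 genes OSGIN1 and NFE2L2 stood highest relative to control, and KEAP1 and NFE2L1 lay closest to it. OSGIN1 averaged 8.70 ± 1.06 FPKM with dopamine and 5.46 ± 0.698 FPKM in control (SD, n = 3 each), and NFE2L2 averaged 6.84 ± 0.782 and 4.64 ± 1.30 FPKM. None of the 10 passed the adjusted threshold in limma. Unadjusted p-values were under 0.05 for 2 of 10, OSGIN1 and NFE2L2, against 32.5% of all tested genes, and limma-voom on the recovered fragments gave the same counts, 0 and 2, against 34.2% at an unadjusted p. The groups did not overlap in 3 of the 10, against 38.4% of all tested genes. In these 3 (OSGIN1, NFE2L2 and MAFG) the dopamine values lay above control, against 24.4% of all genes in that direction, and none of the 10 lay entirely below, against 14.1%. These shares do not set the 10 genes apart from the table. The median log2 fold change was 0.17 over the 10 genes and 0.08 over all tested genes, and the mean of log2(FPKM + 0.5) was higher with dopamine in 6 of the 10, against 60% of all genes. Without control replicate 1, 2 of the 10 passed the adjusted threshold (OSGIN1 and NFE2L2), against 18.5% of all genes, and with sample quality weights 3 did (those and MAFG), against 22.9% of all genes.

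**Figure D1:**
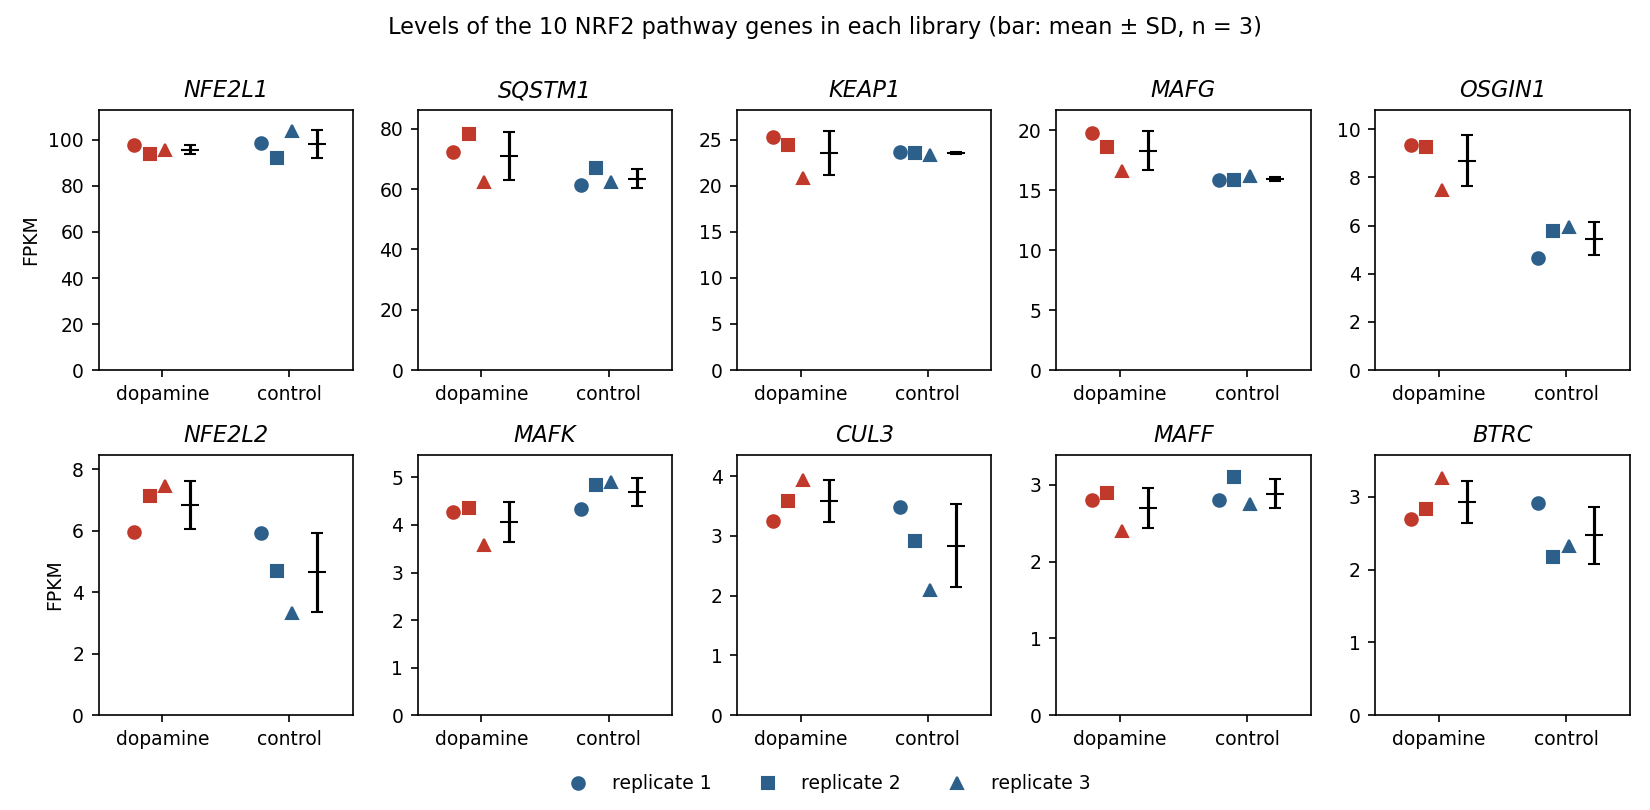
FPKM (linear axes from 0) of each of the 10 genes in the 3 dopamine and the 3 control libraries, with symbols for the replicate number and black bars for mean ± SD, n = 3. OSGIN1, NFE2L2 and MAFG show no overlap between the groups, while the dopamine values of NFE2L1 lie inside the control range and those of KEAP1 on both sides of it.

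On the per-length FPKM scale the levels over all 6 libraries fell into a fixed upper order and a loose lower one. NFE2L1 was highest at a mean of 97.0 FPKM, followed by SQSTM1 at 67.3, KEAP1 at 23.5 and MAFG at 17.1, and each of these 4 exceeded the next gene in 6 of 6 libraries with ranges that did not touch. Below them came OSGIN1 at 7.08, NFE2L2 at 5.74, MAFK at 4.38, CUL3 at 3.21, MAFF at 2.79 and BTRC at 2.701 FPKM. In this lower part the ranges of neighbours overlapped. OSGIN1 exceeded NFE2L2 in 5 of 6 libraries, NFE2L2 exceeded MAFK in 4, MAFK exceeded CUL3 in 5, CUL3 exceeded MAFF in 4 and MAFF exceeded BTRC in 4. The authors' FPKM divided each gene by an exonic length that could be recovered from the same steps. It was 5907 bases for NFE2L2 and 7664 for SQSTM1, against 2853 and 2986 bases in the longest GENCODE 29 transcript, and 3761 against 2955 bases for KEAP1, so the order depends on those lengths.

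NFE2L2 (ENSG00000116044.11, hg19 chromosome 2, 178092323 to 178257425) encodes NRF2, the activator of antioxidant and detoxifying genes. It measured 5.96, 7.11 and 7.44 FPKM in dopamine replicates 1, 2 and 3, and 5.91, 4.69 and 3.32 FPKM in control replicates 1, 2 and 3. The groups did not overlap, but dopamine replicate 1 and control replicate 1 were nearly level and control replicate 3 stood lowest. The log2 fold change was 0.54 (SE 0.18, 95% interval 0.14 to 0.94, unadjusted p = 0.0137, adjusted p = 0.113, limma). Without control replicate 1 it was 0.72 and passed (adjusted p = 0.0304), and with sample quality weights the adjusted p was 0.028. The log2 fold change was 0.34 without control replicate 3 and 0.28 without both replicates numbered 3. Counting error was small beside this: the libraries held 405 to 940 fragments of NFE2L2, a counting error of 3.26 to 4.97%, whereas the control replicates had a coefficient of variation of 27.96%. The annotated span of NFE2L2 overlaps AC074286.1 on the same strand (109184 bases, mean 0.138 FPKM), and on the other strand AC079305.10 (1157 bases, 0.566 FPKM) and, for 54 bases at its start, AGPS (3.76 FPKM). Whether reads were counted by strand is not stated.

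NFE2L1 (ENSG00000082641.11, hg19 chromosome 17, 46125691 to 46138849) encodes NRF1, a relative of NRF2 that is made at the endoplasmic reticulum and is known for inducing proteasome genes. It measured 97.7, 94.1 and 95.8 FPKM with dopamine, and 98.6, 92.0 and 104 FPKM in control. The dopamine values lay inside the control range. The log2 fold change was -0.03 (SE 0.07, 95% interval -0.20 to 0.13, adjusted p = 0.767), and its sign turned in 5 of 22 alternative settings. The ratio of NFE2L1 to NFE2L2 was 16.4, 13.2 and 12.9 in dopamine replicates 1, 2 and 3, and 16.7, 19.6 and 31.3 in control replicates 1, 2 and 3. NFE2L1 stood above NFE2L2 on the per-length scale in 6 of 6 libraries.

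KEAP1 (ENSG00000079999.9, hg19 chromosome 19, 10596796 to 10614417), the sensor and substrate adaptor, measured 25.3, 24.5 and 20.8 FPKM with dopamine, and 23.7, 23.6 and 23.4 FPKM in control. The dopamine libraries lay on both sides of the control libraries, which differed among themselves by less than the counting error (coefficient of variation 0.529%, counting error 2.16 to 2.44%). The log2 fold change was -0.0047, with a 95% interval of -0.20 to 0.19, which as a fold is 0.868 to 1.14 (adjusted p = 0.974). Without dopamine replicate 3 the sign turned (0.08), as it did with TPM scaling (0.0013).

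CUL3 (ENSG00000036257.8, hg19 chromosome 2, 225334867 to 225450110) encodes the cullin scaffold of the ligase to which KEAP1 brings NRF2. Its values were 3.24, 3.58 and 3.94 FPKM with dopamine, and 3.49, 2.92 and 2.10 FPKM in control. The groups overlapped through control replicate 1, and the log2 fold change was 0.31 (SE 0.16, 95% interval -0.05 to 0.68, adjusted p = 0.204). The ratio of KEAP1 to CUL3 was 7.81, 6.83 and 5.29 with dopamine, and 6.78, 8.08 and 11.1 in control, so the groups overlapped there too. KEAP1 to NFE2L2 stood at 4.25, 3.44 and 2.80 with dopamine and at 4.00, 5.02 and 7.06 in control, again with overlap.

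BTRC (ENSG00000166167.13, hg19 chromosome 10, 103113820 to 103317078) encodes beta-TrCP, the F-box protein of a second route of NRF2 degradation that follows phosphorylation by GSK3. It measured 2.698, 2.84 and 3.25 FPKM with dopamine, and 2.92, 2.18 and 2.32 FPKM in control. Control replicate 1 lay above the dopamine replicates 1 and 2, and the log2 fold change was 0.21 (SE 0.14, 95% interval -0.09 to 0.52, adjusted p = 0.287).

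The small MAF proteins lack an activation domain and serve as DNA-binding partners of NRF1, NRF2 and their repressor BACH1. MAFG (ENSG00000197063.6, hg19 chromosome 17, 79876146 to 79885590) was the most abundant of the 3 genes, at 19.8, 18.6 and 16.6 FPKM with dopamine, and 15.8, 15.9 and 16.2 FPKM in control. The groups did not overlap, with dopamine replicate 3 just above control replicate 3, and the log2 fold change was 0.19 (SE 0.09, 95% interval -0.0037 to 0.38, adjusted p = 0.159). MAFK (ENSG00000198517.5, hg19 chromosome 7, 1570350 to 1582679) measured 4.28, 4.35 and 3.58 FPKM with dopamine, and 4.34, 4.83 and 4.90 FPKM in control. MAFF (ENSG00000185022.7, hg19 chromosome 22, 38597889 to 38612518) measured 2.80, 2.89 and 2.40 FPKM with dopamine, and 2.81, 3.11 and 2.75 FPKM in control. Both overlapped between the groups, with log2 fold changes of -0.19 (SE 0.11, adjusted p = 0.26) for MAFK and -0.08 (SE 0.12, adjusted p = 0.633) for MAFF.

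The shares within the small MAF pool did not overlap between the groups, while its summed level did. The summed level was 26.8, 25.8 and 22.6 FPKM with dopamine and 23.0, 23.8 and 23.8 FPKM in control, with overlap. MAFG made up 73.6, 71.9 and 73.5% of that sum with dopamine, and 68.9, 66.7 and 67.9% in control. MAFK made up 16.2 ± 0.557% with dopamine and 19.9 ± 0.898% in control, and MAFF 10.8 ± 0.393% and 12.3 ± 0.755% (SD, n = 3 each). None of the 3 shares overlapped between the groups, while among single tested genes 38.4% did not overlap. Transcripts of MAFG have 57.2% GC, those of MAFF 61.9% and those of MAFK 63.4%. The shares were not corrected for the GC dependence in which the libraries differed. After the GC and length correction the log2 fold changes were 0.27 for MAFG, 0.07 for MAFF and -0.02 for MAFK. The shares are a description, are tied to each other, and were not tested. SIRT7 (6.76 FPKM on average) overlaps 3054 bases of MAFG on the same strand, so fragments from the shared stretch are uncertain for MAFG.

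**Figure D2:**
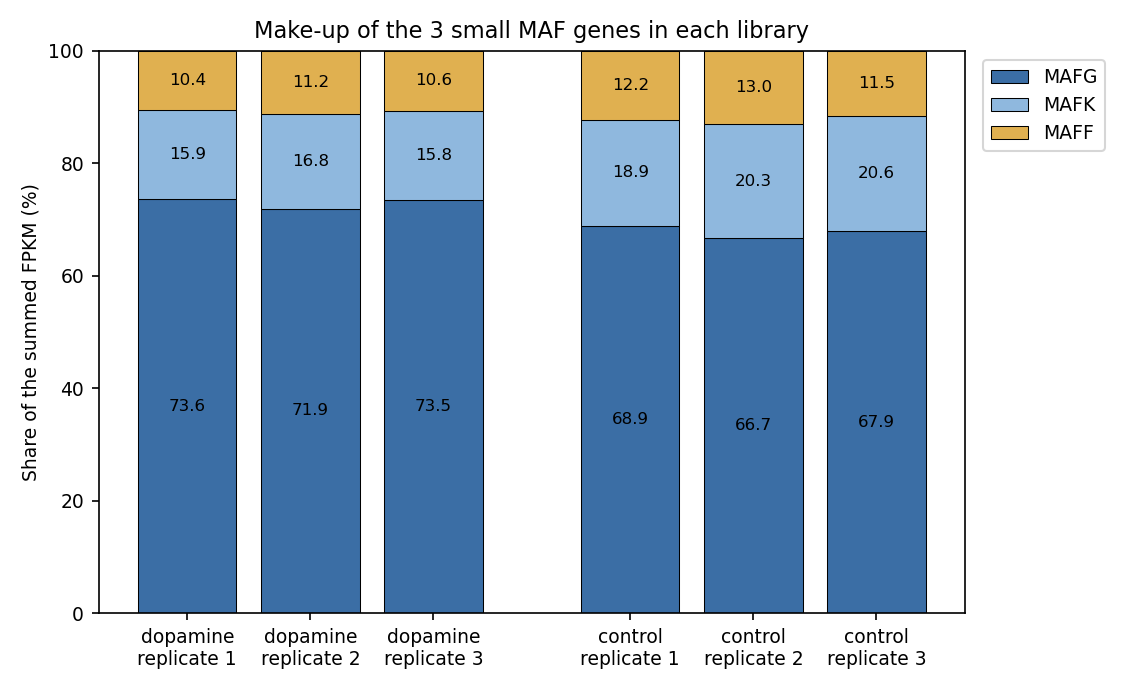
Share (%) of MAFG, MAFK and MAFF in the summed FPKM of the 3 genes, 1 bar per library, dopamine left of control. MAFG holds 71.9 to 73.6% in the dopamine libraries and 66.7 to 68.9% in the control libraries.

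SQSTM1 (ENSG00000161011.15, hg19 chromosome 5, 179233388 to 179265078) encodes p62, a receptor of selective autophagy that binds KEAP1 in the pocket NRF2 uses and whose gene is itself a known NRF2 target. It measured 72.3, 78.3 and 62.4 FPKM with dopamine, and 61.3, 67.0 and 62.3 FPKM in control. Dopamine replicate 3 lay within the control range and the other two dopamine libraries above it, with a log2 fold change of 0.15 (SE 0.09, 95% interval -0.06 to 0.36, adjusted p = 0.26). Per unit of KEAP1 it stood at 2.86, 3.20 and 2.99 with dopamine, and at 2.59, 2.84 and 2.66 in control. These values barely missed overlap: the lowest with dopamine was 2.857 and the highest in control 2.842. That gap is smaller than the counting error of KEAP1 alone, 2.16 to 2.44%, and 38.4% of single tested genes did not overlap. The ratio was not tested. MGAT4B, at 41.1 FPKM, overlaps 565 bases of SQSTM1 on the other strand.

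OSGIN1 (ENSG00000140961.8, hg19 chromosome 16, 83981887 to 83999937), oxidative stress induced growth inhibitor 1, is known as an NRF2 target and was the member with the smallest p, ranked 62 of the 11791 tested genes. It measured 9.36, 9.25 and 7.48 FPKM in dopamine replicates 1, 2 and 3, and 4.66, 5.77 and 5.94 FPKM in control replicates 1, 2 and 3. The lowest dopamine library stood clear of the highest control library. The log2 fold change was 0.63 (SE 0.13, 95% interval 0.34 to 0.91), a fold of 1.54 on the log2(FPKM + 0.5) scale, with an unadjusted p of 0.000686 and an adjusted p of 0.11 (limma). The libraries held 366 to 671 fragments of the gene, a counting error of 3.86 to 5.23%. It passed the adjusted threshold in 3 of 22 alternative settings: without control replicate 1 (adjusted p = 0.032), with sample quality weights (adjusted p = 0.00721) and with GC content and length corrected (adjusted p = 0.0136). Over all 22 the adjusted p ran from 0.00721 to 0.294 and the log2 fold change from 0.52 to 0.80.

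The sequence upstream of OSGIN1 is shown because this gene had the smallest p of the 10. In RefSeq's promoter windows (GRCh38.p14, 250 bases before to 50 after each start), 8 of the 10 genes matched, with 15 windows. The windows were searched on both strands for the antioxidant response element core TGACNNNGC and for TGCTGAC and TGACTCA, which are parts of MAF and AP-1 type elements. The OSGIN1 stretch lies at chr16:83953120-83953169 on the plus strand, 120 to 71 bases before the start, and its capitals mark TGCTGAC and TGACTCA, which overlap each other there. The KEAP1 stretches lie at chr19:10502807-10502835 and chr19:10502784-10502812 on the minus strand, the MAFF stretch at chr22:38201862-38201890 and the SQSTM1 stretch at chr5:179820697-179820723, both on the plus strand. The KEAP1, MAFF and SQSTM1 stretches overlap exons of the 10 genes in GENCODE 29, and the OSGIN1 stretch overlaps none. Capitals mark the TGACNNNGC core in KEAP1 and MAFF (reverse complement in the second KEAP1 stretch and in MAFF) and TGCTGAC in reverse complement in SQSTM1.
OSGIN1: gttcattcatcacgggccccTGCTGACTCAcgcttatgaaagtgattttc
KEAP1 farther from the start: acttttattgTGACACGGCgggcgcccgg
KEAP1 nearer to the start: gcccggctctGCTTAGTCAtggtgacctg
MAFF: cttccaggggGCGGGGTCAtacgggggcg
SQSTM1: gaagagagggGTCAGCAatgagggggc
The core TGACNNNGC was in 2 of the 15 windows (13.3%), against 13.3% of all 35116 promoter windows. TGCTGAC was in 2 of 15 (13.3%), against 4.19% of all windows, and TGACTCA in 1 of 15 (6.7%), against 4.95%. These motifs were added after the data were seen, and the OSGIN1 stretch counts for both. Several windows belong to the same gene, so these shares are no test of enrichment. A match is a string of letters and not a shown binding site.

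**Figure D3:**
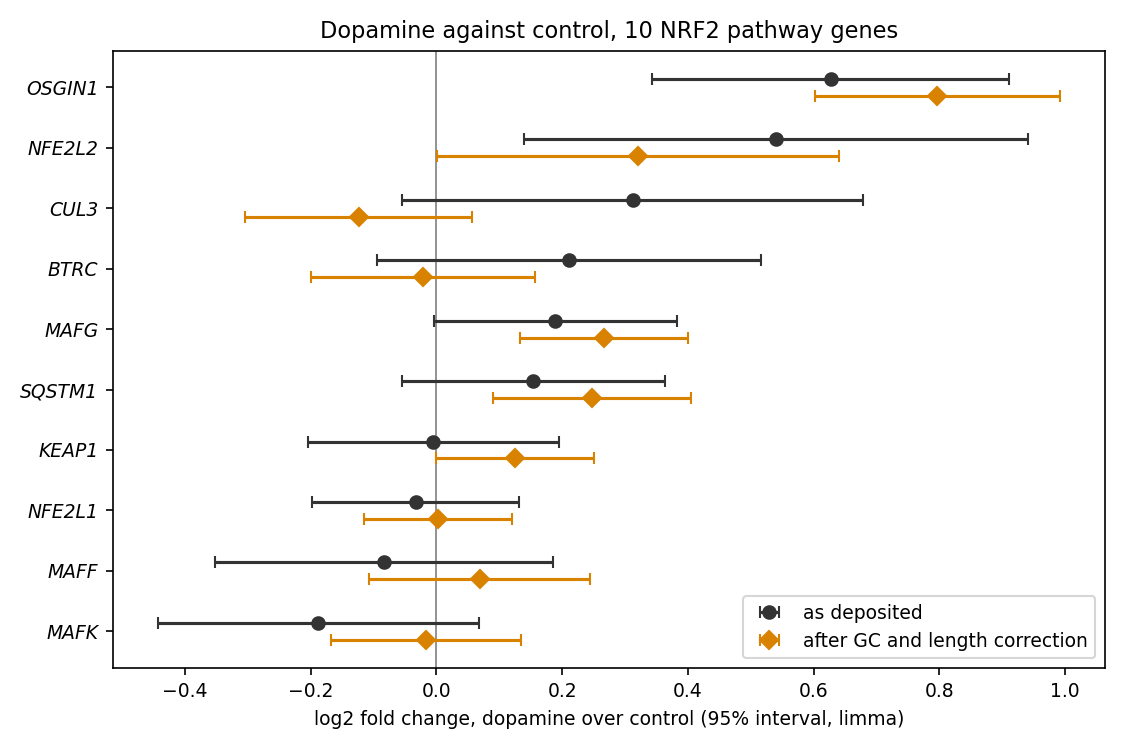
Log2 fold change of dopamine over control with its 95% interval (limma) for the 10 genes, as deposited (circles) and after the GC and length correction (diamonds). OSGIN1 lies farthest right in both, at 0.63 and 0.80, and CUL3 changes sign, at 0.31 and -0.12.

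The libraries differed in how levels followed GC content, and the 10 genes split along it. Regressed on GC content, the deviation of a library from the mean of each gene had a slope per 10 GC points of -0.03, -0.06 and -0.255 log2 units in dopamine replicates 1, 2 and 3, and 0.02, 0.11 and 0.22 in control replicates 1, 2 and 3. NFE2L2, BTRC and CUL3 have transcripts of 45.6, 45.3 and 37.5% GC, and the other 7 genes lie between 55.2 and 63.4%. Dopamine replicate 3 was the highest of the dopamine libraries in all 3 genes below 50% GC and the lowest in 6 of the 7 genes above it. Control replicate 3 was less regular. It was the lowest of the control libraries in 2 of the 3 genes below 50% GC. Of the 7 genes above, it was the highest in 4 and the lowest in 2.

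Set beside genes within 1 point of their own GC content, the 10 genes lay at different places. OSGIN1, with a log2 fold change of 0.63, lay far above its 447 GC neighbours (median -0.18, quartiles -0.24 to -0.12). NFE2L2 at 0.54 lay above the upper quartile of its 885 neighbours (median 0.21, quartiles 0.09 to 0.32). MAFG at 0.19 and SQSTM1 at 0.15 also lay above the upper quartiles of theirs (-0.02 for each, medians -0.11 and -0.12). BTRC at 0.21 lay at the level of its neighbours (median 0.23), and CUL3 at 0.31 lay below the lower quartile of its neighbours (0.33, median 0.43). MAFK at -0.19 matched its neighbours' median of -0.18, and KEAP1 at -0.0047 lay above its neighbours' upper quartile of -0.06.

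**Figure D4:**
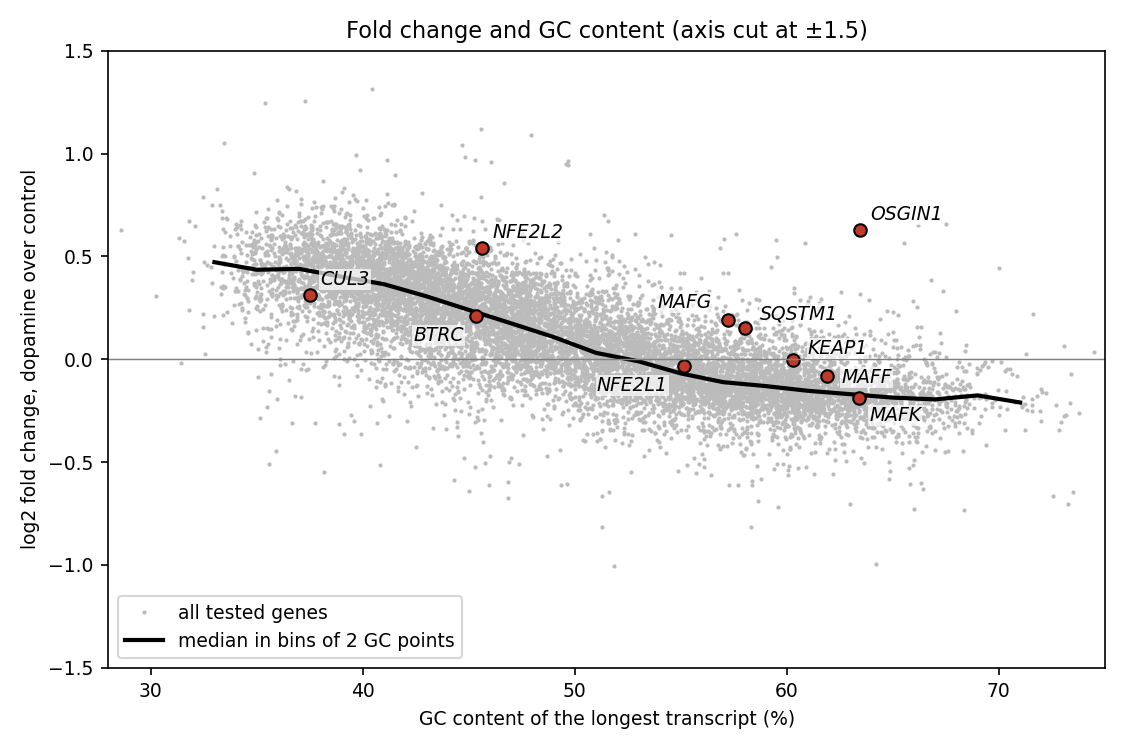
Log2 fold change of dopamine over control against GC content (%) of the longest transcript, for tested genes with a GC value (grey, with the vertical axis cut), with the median in bins of 2 GC points (line) and the 10 genes (red). The line runs downward with GC content, CUL3 and BTRC lie at or under it, and OSGIN1 and NFE2L2 lie above it.

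After the GC and length correction OSGIN1 alone of the 10 passed (log2 fold change 0.80, 95% interval 0.60 to 0.99, adjusted p = 0.0136), against 0.242% of the 11579 genes that could be corrected. Unadjusted p-values were then under 0.05 for 4 of the 10 (OSGIN1, MAFG, SQSTM1 and NFE2L2), against 17% of all genes. MAFG had a corrected log2 fold change of 0.27 (adjusted p = 0.133), SQSTM1 of 0.25 (adjusted p = 0.177) and NFE2L2 of 0.32 (adjusted p = 0.294). CUL3 and BTRC changed sign, to -0.12 and -0.02, as did KEAP1, MAFF and NFE2L1, to 0.12, 0.07 and 0.0022. The slopes did not overlap between the groups, so GC dependence and treatment cannot be told apart for these genes.

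NFE2L2 and CUL3 followed each other closely across the libraries. Their ratio was 1.84, 1.99 and 1.89 with dopamine and 1.69, 1.61 and 1.58 in control, with no overlap between the groups and little spread within either. Among single tested genes 38.4% did not overlap. NFE2L2 has 45.6% GC and CUL3 37.5%, and the ratio was neither corrected for GC content nor tested. The genes whose log2 values over the 6 libraries were most like those of NFE2L2 were DDI2, the protease that cleaves NRF1 (Pearson r = 0.9969), SAR1B (0.9965) and RMDN1 (0.9964), but 2207 tested genes exceeded 0.9, so such likeness is common in this table. For KEAP1 they were SPR (0.9926), THBS3 (0.9894) and MIEF2 (0.9806), with 138 genes above 0.9. The points are the same 6 libraries in each case, which also carry the GC trend, and these values are descriptions.

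Of 79 tested genes in 8 lists of the wider pathway, counted once each, 4 rose and none fell, which is 5.06% against 0.102% of all genes. The lists were written with earlier results of these data known, so the count is a description. At an unadjusted p under 0.05 (limma) 40 were higher and 7 lower, against 24.4% and 8.05% of all genes, and their median log2 fold change was 0.26. After the GC and length correction 6 rose and none fell, against 0.242% of all genes called. Their median was then 0.09, against -0.0043 over all genes.

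Among NRF2 target genes outside the 10 members, 28 were tested, 3 rose and 25 did not pass, against 0.102% of all genes called. Their median log2 fold change was 0.25. HMOX1, the heme-degrading oxygenase, measured 426, 470 and 391.7 FPKM with dopamine, and 31.99, 38.2 and 28.9 FPKM in control (log2 fold change 3.69, adjusted p = 6.06e-07). GCLM, a subunit of the enzyme that starts glutathione synthesis, had 12.3, 12.2 and 14.4 FPKM with dopamine, and 5.95, 5.18 and 4.38 FPKM in control (adjusted p = 0.00626). TXNRD1, thioredoxin reductase, had a log2 fold change of 0.98 (adjusted p = 0.0199). NQO1, a quinone reductase, stood at 108 ± 6.18 FPKM with dopamine and 84.4 ± 6.35 FPKM in control (SD, n = 3 each) and did not pass (adjusted p = 0.11). GCLM missed the threshold in 4 of 22 alternative settings and TXNRD1 in 8, among them the removal of control replicate 2 for both (adjusted p = 0.0782 and 0.217). SLC7A11, the cystine transporter, did not pass as deposited (adjusted p = 0.0753) and passed in 6 of 21 alternative settings, among them the GC and length correction (adjusted p = 0.0237), for which it is named. Over these 21 its adjusted p ran from 0.00721 to 0.255. By unadjusted p (limma, 0.05) 16 of the 28 stood higher and none lower, against 24.4% and 8.05% of all genes, and after the correction 11 stood higher and none lower, against 17% in either direction.

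The other factors that bind the same elements were few in these cells. Of 8 CNC, BACH and large MAF genes 2 reached the limit for testing and neither passed. BACH1, the heme-sensing repressor that competes with NRF2 for small MAF partners, measured 2.22, 2.34 and 2.49 FPKM with dopamine, and 1.88, 1.38 and 0.959 FPKM in control. The groups did not overlap (log2 fold change 0.61, adjusted p = 0.11), and the corrected value was 0.19 (adjusted p = 0.373). NFE2L3, another relative of NRF2, stood at 10.3 ± 1.93 FPKM with dopamine and 8.62 ± 1.20 FPKM in control (adjusted p = 0.278).

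None of the 9 tested genes of cullin-3 assembly and neddylation passed, while 4 stood higher and 1 lower by unadjusted p (limma, 0.05), against 24.4% and 8.05% of all genes. After the GC and length correction none of the 9 did in either direction, against 17% of all genes, and their median log2 fold change was 0.0043, against 0.42 as deposited. UBA3, a subunit of the NEDD8-activating enzyme, stood at 7.51 ± 1.4995 FPKM with dopamine and 4.98 ± 1.31 FPKM in control, COPS2, a subunit of the COP9 signalosome that removes NEDD8, at 7.16 ± 1.12 and 4.76 ± 1.02 FPKM, and UBE2M, the NEDD8-conjugating enzyme, at 96.6 ± 8.91 and 116 ± 6.63 FPKM. Of 9 tested genes in the list of KEAP1-binding proteins none passed either, and 3 stood higher and 2 lower by unadjusted p, against 24.4% and 8.05% of all genes. CHD6 is in this list and also in that of NRF2 coactivators, and is counted as higher in both. Binding to KEAP1 was not tested here. After the correction 2 of the 9 stood higher and 1 lower, against 17% of all genes in either direction. Their median log2 fold change was then -0.01, against 0.15 as deposited. PGAM5, a mitochondrial phosphatase, stood at 16.5 ± 2.01 FPKM with dopamine and 21.2 ± 0.778 FPKM in control (adjusted p = 0.11), TRIM16 at 5.84 ± 1.04 and 4.41 ± 0.125 FPKM (adjusted p = 0.123), and CHD6 at 1.76 ± 0.225 and 1.19 ± 0.296 FPKM (adjusted p = 0.127).

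Among the 7 tested genes listed under the beta-TrCP and GSK3 route none passed. By unadjusted p (limma, 0.05) 4 of them stood higher and 1 lower, against 24.4% and 8.05% of all genes. SYVN1 and DCAF11 are in this list though they belong to other ubiquitin ligases, and SYVN1 is among the 4. With GC content and length corrected 2 of the 7 stood higher and 1 lower, against 17% of all genes in either direction. Their median log2 fold change was then -0.05, against 0.26 as deposited. SYVN1, the endoplasmic reticulum ubiquitin ligase HRD1, which acts on NRF1 and also on NRF2, measured 18.9, 19.0 and 18.6 FPKM with dopamine, and 14.6, 14.8 and 15.3 FPKM in control. The groups stood well apart with little spread in either (log2 fold change 0.33, SE 0.07, adjusted p = 0.11), and SYVN1 rose after the GC and length correction (log2 fold change 0.39, adjusted p = 0.032). CUL1, the cullin that works with beta-TrCP, stood at 25.3 ± 3.45 FPKM with dopamine and 18.5 ± 3.37 FPKM in control, and FBXW11, the paralog of BTRC, at 11.8 ± 1.37 and 9.41 ± 0.773 FPKM (adjusted p = 0.11 and 0.116).

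Of 9 tested genes of NRF1 processing and turnover HERPUD1, a component of endoplasmic reticulum associated degradation, rose and 8 did not pass, against 0.102% of all genes called. By unadjusted p (limma) 6 stood higher and 1 lower, against 24.4% and 8.05% of all genes. SYVN1 is in this list too and is counted as higher in both, before and after the correction. After the GC and length correction 4 stood higher and none lower, against 17% of all genes in either direction. Their median log2 fold change was then 0.15, against 0.40 as deposited. HERPUD1 measured 23.5, 22.2 and 23.7 FPKM with dopamine, and 11.3, 9.40 and 11.2 FPKM in control (log2 fold change 1.09, SE 0.09, adjusted p = 0.0024). SEL1L, the partner of SYVN1, stood at 8.81 ± 1.07 FPKM with dopamine and 5.33 ± 1.57 FPKM in control (adjusted p = 0.11). Of 10 tested p62 partners none passed, and 6 stood higher and none lower by unadjusted p (limma), against 24.4% and 8.05% of all genes. The corrected values put 4 higher and 1 lower, against 17% of all genes in either direction. Their median log2 fold change was then 0.17, against 0.37 as deposited. GABARAPL1, a protein of the autophagosome membrane, measured 1.86, 1.86 and 1.81 FPKM with dopamine, and 1.27, 0.930 and 1.07 FPKM in control (adjusted p = 0.11). The kinase TBK1, which phosphorylates p62, stood at 3.29 ± 0.709 and 1.82 ± 0.404 FPKM, and the autophagy receptor TAX1BP1 at 9.49 ± 1.63 and 6.04 ± 1.495 FPKM (dopamine and control, adjusted p = 0.11 for both). Of 7 tested NRF2 coactivators none passed, while 2 stood higher and 2 lower by unadjusted p, against 24.4% and 8.05% of all genes. After the correction 1 stood higher, CHD6, and 1 lower, against 17% of all genes in either direction. CHD6 was counted above as well. CARM1, an arginine methyltransferase, stood at 44.8 ± 1.49 FPKM with dopamine and 55.4 ± 3.04 FPKM in control (adjusted p = 0.11), and MED16, a Mediator subunit, at 24.9 ± 2.05 and 28.98 ± 1.43 FPKM (adjusted p = 0.13).

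RNAs listed as nuclear-retained, taken as a sign of RNA or library quality, also stood higher with dopamine, with ranges that just overlapped. Their summed level (4 of 6 measured, KCNQ1OT1 near 0) was 15.0 to 22.4 FPKM in dopamine libraries and 9.64 to 15.2 FPKM in control libraries. Most of that sum was TUG1, with a mean of 12.2 FPKM, beside 1.42 for MALAT1 and 1.27 for NEAT1. The 3 that were tested had a median log2 fold change of 0.48, and 0.18 after the GC and length correction. Their part in the values of the NRF2 pathway genes was not tested.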

How the data were processed

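RNA of 3 dopamine-treated and 3 control SK-N-SH samples was sequenced after removal of ribosomal RNA, as stranded libraries of total RNA, per the labels' protocols. The authors deposited FPKM values for 26789 genes with hg19 coordinates. The submitters' processing notes name STAR 2.7.1a, HTSeq 0.11.2, FastQC 0.11.9 and DESeq2 1.40.2, and the build hg19, without their roles. Annotation and strand setting are not given in the sources at hand. FPKM divides by each library's total, so a rise of abundant genes lowers the others.

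Library totals were recovered from 2809 pseudogenes spanning 150 to 1500 bases, assumed to have 1 exon: 92.1 to 94.1% of 1033 to 1170 low values per library were whole fragments within 0.03. An exonic length was then sought that made all 6 values of a gene whole, and 11789 of 11791 tested genes had one. Counting errors cover sampling of fragments only.

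Values were analysed as log2(FPKM + 0.5), which understates changes of low genes, for genes with a mean of 1 FPKM or more. The comparison used limma 3.58.1 (R 4.3.3, intensity trend, two-sided, Benjamini-Hochberg over all tested genes, threshold 0.05, no replicate block). GC content and length were those of the longest GENCODE 29 transcript by gene identifier (98.2% of tested genes), and the correction was a loess fit with span 0.5. The scripts were tested on simulated data. The 10 genes, the lists and the alternatives were chosen with earlier results of these data known. All 10 genes, the 3 genes with the smallest p of each list, those called, the 3 genes most alike to NFE2L2 and to KEAP1, and HMOX1, GCLM, TXNRD1 and NQO1 were named, plus KRT18 and SLC7A11, chosen after their values were seen. TGCTGAC and TGACTCA were added as motifs after the data were seen, as was the limma-voom fit. Same-numbered replicates did not deviate together (correlations -0.203, 0.282 and -0.367). Protein sequences were not used here.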

Additional observations from a re-analysis of the deposited data

How the results depend on the processing

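In total 22 alternative settings were run. Of all tested genes 12 passed, against 6 with no filter on low values, 27 after quantile normalization, 5 with no trend, 2706 with sample quality weights and 28 after the GC and length correction. Leaving out libraries gave 3 to 2177 (2177 when control replicate 1 was dropped, 3 for control replicate 2, 6 for control replicate 3 or dopamine replicate 1, and 7 for dopamine replicate 3 or both replicates numbered 3). Of the 10 genes 0 passed, against 3 with sample quality weights (NFE2L2, MAFG and OSGIN1), 1 after the GC and length correction and 0 to 2 when libraries were left out (2 for control replicate 1). Of the pathway lists 4 genes passed, against 2 with no filter, 37 with sample quality weights, and 2 to 29 when libraries were left out (29 for control replicate 1, 2 for control replicate 2).

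The replicate numbers are not stated to pair the samples and their deviations did not run together. With the replicate block 3 genes passed in all, 2 of the pathway lists and none of the 10. With the GC and length correction and the replicate block 8 passed in all, 2 of the pathway lists and none of the 10, OSGIN1 having an adjusted p of 0.091.

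OSGIN1, NFE2L2, MAFG and SQSTM1 had a positive log2 fold change, and MAFK a negative one, in all 22 settings (21 for MAFK, since the filter at mean FPKM 5 removed MAFF, MAFK, CUL3 and BTRC). Signs turned as follows. After the GC and length correction, with and without the replicate block, log2 fold changes were 0.0022 for NFE2L1, 0.12 for KEAP1, 0.069 for MAFF, -0.12 for CUL3 and -0.022 for BTRC. With sample quality weights NFE2L1 stood at 0.020 and KEAP1 at 0.059, and with TPM scaling KEAP1 stood at 0.0013. Leaving out libraries gave NFE2L1 -0.079 to 0.0092, KEAP1 -0.059 to 0.079 and NFE2L3 -0.0049 to 0.36. The cause of these changes was not tested. At this depth counting error was at most 8.09%, for MAFF.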
